A study of Homo sapiens with 6 samples.

Results

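The metallothionein genes were described by reading, from the count table, the rows of 9 listed symbols: MT1A, MT1E, MT1F, MT1G, MT1H, MT1L, MT1M, MT1X and MT2A. Of these, 4 had a row among the 34811 genes of the table, namely MT1A, MT1F, MT1X and MT2A. MT1E, MT1G, MT1H, MT1L and MT1M were not analysed here. The cells were OVCAR-3, an established line from a human ovarian carcinoma, grown in RPMI-1640 with serum. OV3/COX1KD cells stably carried a HuSH-29 shRNA plasmid of the pRS type against COX-1, and OV3/SCR cells carried a scrambled shRNA on the same vector. Puromycin selection was shared by both. Each condition was 1 clone, harvested as 3 independent cell populations, so effects of the clone and of the knockdown cannot be told apart, and p-values describe the spread between harvests of a clone.

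Metallothioneins are small cytosolic proteins whose many cysteines bind zinc, copper and cadmium. They buffer free zinc, hold toxic metals and react with oxidants. Their genes sit in a cluster on the long arm of chromosome 16, and MTF1, a zinc finger factor that senses zinc, switches them on through short metal response elements in their promoters. Glucocorticoids are also known to raise them, MT2A in particular.

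The 4 genes with a row encode nearly the same protein, which bears on how reads can be assigned to them. Coding sequences were taken from GENCODE 44 lifted to GRCh37, from the canonical transcript of 3 exons of each gene. They are shown for the 3 genes that had more than a single count, with in-frame cysteine codons (TGC or TGT) in capitals.
MT2A: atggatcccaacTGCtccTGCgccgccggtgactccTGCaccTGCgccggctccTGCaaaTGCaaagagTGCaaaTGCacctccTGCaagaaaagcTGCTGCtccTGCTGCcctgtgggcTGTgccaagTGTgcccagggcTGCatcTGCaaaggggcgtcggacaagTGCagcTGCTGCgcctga
MT1X: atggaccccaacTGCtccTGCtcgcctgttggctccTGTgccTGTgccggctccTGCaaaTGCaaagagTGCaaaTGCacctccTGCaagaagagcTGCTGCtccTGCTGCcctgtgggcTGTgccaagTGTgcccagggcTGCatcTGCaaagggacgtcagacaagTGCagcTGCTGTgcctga
MT1F: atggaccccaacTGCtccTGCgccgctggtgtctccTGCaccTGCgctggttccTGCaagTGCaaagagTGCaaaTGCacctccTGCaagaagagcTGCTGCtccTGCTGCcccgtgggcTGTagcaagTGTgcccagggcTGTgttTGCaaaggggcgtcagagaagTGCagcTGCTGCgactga
Each of the 4 coding sequences, that of MT1A included, had 186 bases, and 20 of its 61 codons before the stop were cysteine codons (32.8%). MT2A and MT1X were identical at 92.5% of positions, with a longest identical run of 63 bases. MT2A and MT1F were identical at 91.4%, with a longest run of 32 bases. Across the whole canonical transcript, 39 of 352 windows of 50 bases of MT2A (11.1%) also occurred in a transcript of another annotated gene, 14 of them in MT1X. For MT1X the share was 181 of 355 windows (51.0%), including 117 found in ENSG00000259827, a long non-coding gene that overlaps it on the same strand. That non-coding gene had no row, so whether it was counted by the authors is not known. Of the MT1X windows, 47 (13.2%) also occurred in MT1G. For MT1F it was 23 of 376 (6.12%), and for MT1A 20 of 347 (5.76%). The read length, and how reads matching more than 1 gene were counted, are not given in the sources used here, so the split of counts between these copies was uncertain, most of all for MT1X.

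The libraries had between 25291505 and 27391538 counts. PTGS1, the gene of COX-1, had 713, 658 and 641 counts in OV3/SCR and 456, 486 and 501 in OV3/COX1KD. It fell by 0.45 on the log2 scale (standard error 0.057, edgeR's quasi-likelihood test, FDR = 1.3e-06), to 73.3% of the control. Libraries of a condition differed beyond sampling noise (chi-square divided by its degrees of freedom, 1.74 to 5.74). All 9 markers of an ovarian serous carcinoma line, PAX8, WT1 and MUC16 among them, were above 3 counts in every library, with a summed level of 4600 to 4650 CPM (counts relative to library size, with TMM correction for composition) in OV3/SCR and 5820 to 6000 in OV3/COX1KD. These markers differed in direction: mean levels in OV3/SCR and OV3/COX1KD were 1500 and 2357 CPM for KRT8 and 211 and 542 for MUC16, but 755 and 446 for PAX8 and 27.9 and 16.5 for MECOM. The summed markers of hepatocytes, which are rich in metallothioneins, lay between 4.22 and 4.94 CPM in OV3/SCR and between 10.5 and 11 in OV3/COX1KD, nearly all of it APOA1, with ALB at or under 3 counts in every library. Leukocyte markers summed to between 0.600 and 1.57 CPM, and endothelial markers to between 0.996 and 1.95. Fibroblast markers summed to 10.9 to 11.6 CPM in OV3/SCR and 6.52 to 7.42 in OV3/COX1KD. Most of that sum was COL1A1, with means of 10.1 CPM in OV3/SCR and 5.92 in OV3/COX1KD. In the same order, COL1A2 had 0.649 and 0.454, DCN 0.485 and 0.481, and PDGFRB 0.102 and 0.234. The part of the cells these lists mark in any metallothionein result was not tested.

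Of the 4 genes, 2 passed a filter on low counts and were tested, and 1 of these, MT2A, was called lower in OV3/COX1KD, where 22.1% of all tested genes were called lower. MT2A fell to 33.2% of the control level. MT2A (ENSG00000125148, chr16:56642496-56643409 of GRCh37, plus strand) is the main metallothionein of many human tissues. It had 223, 210 and 209 counts in OV3/SCR replicates 1, 2 and 3, and 73, 86 and 48 counts in OV3/COX1KD replicates 1, 2 and 3. Each OV3/COX1KD library was below each OV3/SCR library, and the lowest was replicate 3. Its level was 8.16 ± 0.170 CPM (SD, n = 3) in the controls against 2.71 ± 0.830 CPM (SD, n = 3) in the knockdown cells. The log2 fold change was -1.60 (standard error 0.15, 95% interval -1.91 to -1.29), a level 3.03-fold lower, with an FDR of 1.4e-08 by edgeR's quasi-likelihood test. The FDR is the p-value adjusted over all 17309 tested genes by the Benjamini-Hochberg procedure, and a gene was called when it was under 0.01. In bulk RNA, fewer cells with MT2A mRNA and less MT2A mRNA per cell cannot be told apart.

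The fall of MT2A was read against a comparison in which many genes moved. By the same rule, 47.9% of the tested genes were called, 22.1% as lower and 25.8% as higher in OV3/COX1KD. With the study's added limit of a fold change above 2.5, which MT2A also passed, 2.34% of the tested genes were lower. The 95% interval of MT2A also held fold changes under that limit. Among all tested genes the conditions did not overlap, with OV3/COX1KD lower, in 30.7%.

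MT2A varied more among the OV3/COX1KD libraries than among the controls. Its coefficient of variation was 2.08% in OV3/SCR, where counting alone would give 6.84%. In OV3/COX1KD it was 30.7%, where counting alone would give 12%. The difference in spread was not tested. The edgeR fit used a single spread for both conditions. The standard error, interval and FDR given for MT2A may therefore understate the variation among the OV3/COX1KD libraries. For MT2A the lowest OV3/COX1KD library was replicate 3. Across all genes, in contrast, OV3/COX1KD replicate 2 stood apart from replicates 1 and 3 (chi-square divided by its degrees of freedom, 4.44 and 5.74). The same measure was 1.81 between OV3/COX1KD replicates 1 and 3, and 1.74 to 2.91 among the controls.

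MT1X (ENSG00000187193, chr16:56716382-56718108 of GRCh37, plus strand), an isoform known to be induced by zinc, was scarce in both conditions. Counts of 8, 20 and 14 in OV3/SCR stood beside 14, 15 and 12 in OV3/COX1KD. The conditions overlapped, and the lowest and the highest counts were both in OV3/SCR. Its level was 0.536 ± 0.233 CPM (SD, n = 3) in the controls against 0.534 ± 0.0762 CPM (SD, n = 3) in the knockdown cells. The difference on the log2 scale was -0.0033 (standard error 0.35, edgeR FDR = 0.994), and its 95% interval ran from -0.74 to 0.73. A change of MT1X within that interval was not detectable at this depth.

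MT1F (ENSG00000198417, chr16:56691643-56694610 of GRCh37, plus strand), another zinc-binding isoform, had 12, 6 and 9 counts in OV3/SCR and 7, 5 and 9 in OV3/COX1KD. These were too few for the filter, so it was not tested. Without that filter its difference on the log2 scale was -0.30 (standard error 0.46, edgeR FDR = 0.668), and the conditions overlapped. MT1A (ENSG00000205362, chr16:56672578-56673999 of GRCh37, plus strand) had 1 count in OV3/SCR replicate 3 and none in the other libraries. This lies under the floor of 3 counts, which corresponded to between 0.112 and 0.120 CPM per library, so no fold change is given. Floors of this kind cover counting error only.

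**Figure D1:**
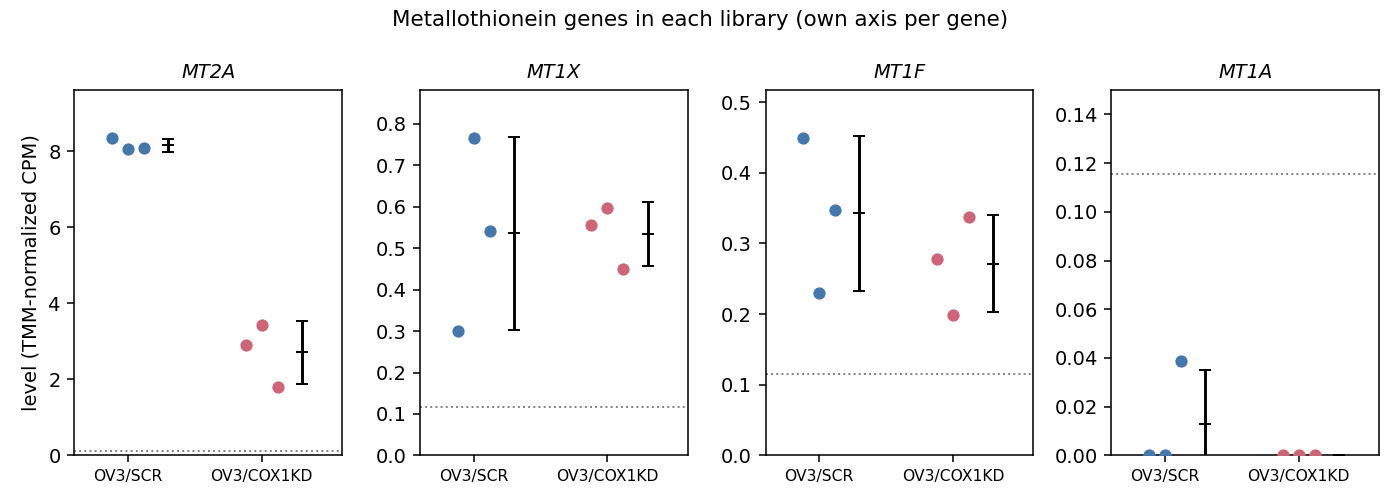
TMM-normalized CPM of each metallothionein gene with a row, in the 3 OV3/SCR (blue) and 3 OV3/COX1KD (red) libraries, with the mean and SD beside the points, the mean floor of 3 counts as a dotted line and an axis of its own for each gene. MT2A lay between 8.05 and 8.36 CPM in OV3/SCR and between 1.80 and 3.43 in OV3/COX1KD, while the conditions overlapped for MT1X and MT1F.

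MT2A carried most of the counts of the 4 genes with a row in both conditions, with a smaller share in OV3/COX1KD. Sums and shares are over these 4 genes and not over the whole family, since the other 5 listed genes were not analysed here. The 4 genes together had 243, 236 and 233 counts in OV3/SCR and 94, 106 and 69 in OV3/COX1KD. This summed level was 9.05 ± 0.0514 CPM (SD, n = 3) in the controls against 3.51 ± 0.840 CPM (SD, n = 3) in the knockdown cells, or 38.8%. MT2A made up 91.8%, 89.0% and 89.7% of the summed count in OV3/SCR against 77.7%, 81.1% and 69.6% in OV3/COX1KD. Such shares do not depend on scaling between libraries, and the conditions did not overlap. They reuse the counts that gave the call of MT2A, so they are a description and no separate support for it. Leaving out MT2A, the sum was 0.891 ± 0.128 CPM (SD, n = 3) in the controls against 0.806 ± 0.0243 CPM (SD, n = 3) in the knockdown cells.

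MT2A was also set against MT1X by their ratio within each library. There were 27.9, 10.5 and 14.9 MT2A counts per MT1X count in OV3/SCR and 5.21, 5.73 and 4 in OV3/COX1KD. All OV3/COX1KD libraries had a lower ratio than all OV3/SCR libraries. The difference was -1.73 on the log2 scale, with p = 0.1 in a two-sided exact permutation test, the smallest value that 3 libraries against 3 allow. The ratio reuses the counts that gave the call of MT2A, and MT1X had only 8 to 20 counts per library. It is therefore a description and no separate support for a difference between the 2 genes. MT1F and MT1A were too scarce for such a ratio.

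Per length, MT2A stood well above the other 3 genes with a row in both conditions. Lengths were the union of annotated exons, 914 bases for MT2A, 1727 for MT1X, 1852 for MT1F and 396 for MT1A. MT2A had 8.93 ± 0.186 CPM per kilobase (SD, n = 3) in OV3/SCR, a level above that of 72.9% of 16800 tested genes with a length, and 2.96 ± 0.909 (SD, n = 3) in OV3/COX1KD, above 48.3%. MT1X followed with 0.310 ± 0.135 CPM per kilobase (SD, n = 3) in the controls against 0.309 ± 0.0441 (SD, n = 3) in the knockdown cells. MT1F had 0.185 ± 0.0593 (SD, n = 3) and 0.147 ± 0.0374 (SD, n = 3) in the same order. MT1X and MT1F overlapped in OV3/SCR and not in OV3/COX1KD, where MT1F reached at most 0.182 CPM per kilobase and MT1X was at least 0.261. The unions for MT2A, MT1X and MT1F are longer than their canonical transcripts of 401, 404 and 425 bases, and with canonical lengths MT2A had 20.4 CPM per kilobase in OV3/SCR and 6.75 in OV3/COX1KD. The order by mean level stayed MT2A, MT1X, MT1F, MT1A, while the shares of genes below MT2A were computed on union lengths only.

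Promoter sequence was read for MT2A and MT1X, the pair that was tested, because MTF1 is known to act through metal response elements. Of the 9 listed genes, 3 had an entry in the RefSeq promoter table of GRCh38.p14, and MT1F was not among them. The 250 bases before the start are shown for MT2A (chr16:56608334-56608583, plus strand) and MT1X (chr16:56682220-56682469, plus strand), with matches to the core letters TGCGCNC or TGCACNC on either strand in capitals.
MT2A: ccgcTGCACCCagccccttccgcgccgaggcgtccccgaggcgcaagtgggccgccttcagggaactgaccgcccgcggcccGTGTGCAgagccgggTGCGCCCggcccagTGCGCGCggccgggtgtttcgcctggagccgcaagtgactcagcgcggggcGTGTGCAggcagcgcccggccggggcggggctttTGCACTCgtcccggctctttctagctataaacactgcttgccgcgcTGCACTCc
MT1X: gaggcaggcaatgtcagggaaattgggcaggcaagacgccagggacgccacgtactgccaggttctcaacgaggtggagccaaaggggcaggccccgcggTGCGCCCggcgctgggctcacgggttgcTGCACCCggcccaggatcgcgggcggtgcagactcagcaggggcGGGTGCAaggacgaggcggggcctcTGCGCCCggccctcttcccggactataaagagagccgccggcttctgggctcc
The MT2A window held 7 matches, 5 on the plus strand and 2 on the minus strand, and the MT1X window held 4, with 3 on the plus strand. No match overlapped another in either window. The match nearest to the start lay 8 to 2 bases before it in MT2A and 53 to 47 bases before it in MT1X. Of 35116 promoter windows of the same length, 24.8% held at least 1 match, 0.37% held 4 or more and 0.0313% held 7 or more. A match describes letters and is not evidence of binding.

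Other rows that carry a metallothionein name added little. MT3, the brain isoform, had 1 count in 1 OV3/SCR library, MT1B had 3 counts in 1 OV3/SCR library and 1 count in 1 OV3/COX1KD library, and the pseudogene MT1P1 had at most 2 counts in any library. A pair of rows were named MT1P3. The row ENSG00000229230 had 1 count in all. The row ENSG00000126005, which the annotation used here names MMP24OS on chromosome 20 and whose body spans that pseudogene on the opposite strand, had 334, 372 and 322 counts in OV3/SCR and 371, 405 and 367 in OV3/COX1KD and is no metallothionein gene. It was not added to the family.

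Genes around the cluster moved in both directions. Of 44 other genes with a body within 1 Mb of the span from MT4 to MT1X, 22 were tested, and 9 were called higher and 3 lower. Over all tested genes, 25.8% were called higher and 22.1% lower. The median log2 fold change of the stretch was 0.19 beside -0.0087 over all tested genes. The number called higher lay between 7 and 10 over the 14 alternatives. BBS2, a subunit of the BBSome of primary cilia that starts 25.9 kb before MT2A, rose by 0.40 on the log2 scale (standard error 0.055, edgeR FDR = 3.5e-06). NUP93, a nuclear pore scaffold whose start lies 121.5 kb beyond that of MT2A, had 0.082 (standard error 0.038, edgeR FDR = 0.0704), and was chosen after its value was seen as the nearest tested gene on that side. The largest rises of the stretch were PLLP, encoding the myelin and epithelial membrane protein plasmolipin, with a log2 fold change of 1.57, and CX3CL1, the chemokine fractalkine, with 0.55. The 3 that fell were NLRC5, a transactivator of MHC class I genes, by 0.75 on the log2 scale, GPR56, an adhesion G protein-coupled receptor, by 0.45, and RSPRY1 by 0.35.

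**Figure D2:**
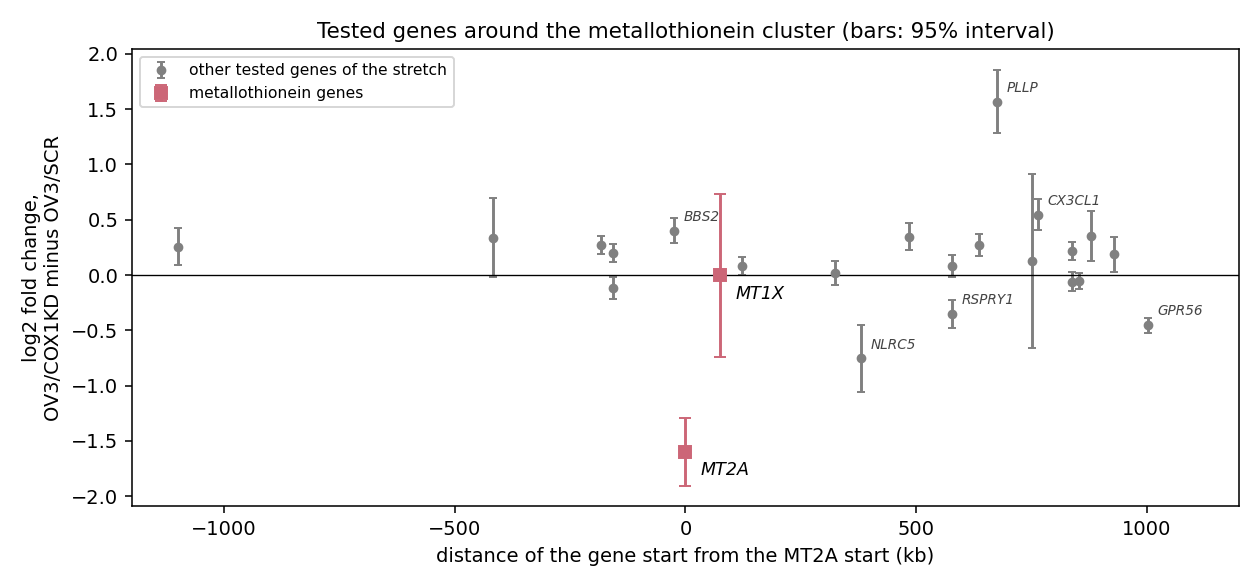
Log2 fold change (OV3/COX1KD minus OV3/SCR) of each tested gene whose body lies within 1 Mb of the cluster, against the distance of its start from the MT2A start in kilobases; grey circles are other genes, red squares are MT2A and MT1X, and bars are 95% intervals. MT2A at -1.60 was lower than every other tested gene of the stretch, of which the lowest was NLRC5 at -0.75.

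Among the regulators and stress genes that accompany metallothioneins, differences were small. None of the 8 tested genes of this list (of 10 listed) was higher and 2 were lower, by edgeR and with a median log2 fold change of -0.086. Over all tested genes, 25.8% were called higher and 22.1% lower. MTF1 itself had 585, 584 and 565 counts in OV3/SCR and 495, 455 and 562 in OV3/COX1KD. After scaling, all OV3/COX1KD libraries were below all OV3/SCR libraries, which held for 30.7% of all tested genes. The difference of -0.17 on the log2 scale (standard error 0.061, edgeR FDR = 0.0255) did not pass the threshold. SLC30A1, the zinc exporter of the plasma membrane and a known MTF1 target, fell by 0.19 on the log2 scale (standard error 0.043, edgeR FDR = 0.00114), with 76.9 CPM in OV3/SCR and 67.6 in OV3/COX1KD. Without OV3/SCR replicate 1 its FDR was 0.0119. GCLC, the catalytic subunit of glutamate-cysteine ligase in glutathione synthesis, fell by 0.14 (standard error 0.039, edgeR FDR = 0.00416). This call was lost with any of 4 libraries left out: OV3/SCR replicate 1 (FDR 0.0392) and replicate 3 (0.0286), and OV3/COX1KD replicate 1 (0.0129) and replicate 3 (0.0180). It was also lost with DESeq2, at an adjusted p of 0.0119, and without the filter on low counts, at an edgeR FDR of 0.0223. HMOX1, the heme oxygenase that cadmium and oxidants induce, had 65, 65 and 58 counts in OV3/SCR and 53, 53 and 62 in OV3/COX1KD, with a difference of -0.13 on the log2 scale (standard error 0.16, edgeR FDR = 0.498).

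Of 6 tested zinc exporters of the SLC30 family, 3 were higher and 1, SLC30A1, was lower, with a median log2 fold change of 0.22. The shares over all tested genes were 25.8% higher and 22.1% lower. SLC30A9, a transporter of mitochondria, rose by 0.48 on the log2 scale (standard error 0.034, edgeR FDR = 3.6e-10). SLC30A6 and SLC30A5, which work as a pair in the secretory pathway, rose by 0.23 and 0.22.

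Zinc importers of the SLC39 family moved in both directions. Of 12 tested, 5 were higher and 2 lower, with a median log2 fold change of 0.025. Among all tested genes, 25.8% were higher and 22.1% lower. SLC39A11 had 321, 302 and 293 counts in OV3/SCR and 764, 758 and 827 in OV3/COX1KD, and rose by 1.39 on the log2 scale (standard error 0.058, edgeR FDR = 1.0e-13). SLC39A4, the importer needed for zinc uptake from food, rose by a log2 fold change of 0.90, and SLC39A9 by 0.22. SLC39A8 and SLC39A14, which also carry manganese, iron and cadmium, fell by 0.40 and 0.32 on the log2 scale.

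Of 13 tested copper genes, 6 were higher and 2 lower, with a median log2 fold change of 0.18. These counts stood beside 25.8% higher and 22.1% lower among all tested genes. ATP7A, a copper-exporting ATPase, had 424, 388 and 458 counts in OV3/SCR and 779, 801 and 840 in OV3/COX1KD, and rose by 0.96 on the log2 scale (standard error 0.061, edgeR FDR = 6.7e-11). Its relative ATP7B rose by 0.46, and the metalloreductase STEAP3 by 0.52. STEAP4, of the same reductase family, fell by 0.50. COX17, which delivers copper to cytochrome c oxidase, fell by 0.16 (edgeR FDR = 0.00162), and its FDR was 0.0129 without OV3/COX1KD replicate 1 and 0.0125 without the filter on low counts. The copper importer SLC31A1 had a log2 fold change of 0.34 (edgeR FDR = 4.8e-06).

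Of 9 tested genes of the glucocorticoid list, which holds the receptor gene and its targets, 1 was higher and 2 were lower. The median log2 fold change was -0.15. Over all tested genes, 25.8% were called higher and 22.1% lower. The higher gene of the list was the receptor gene, and both lower genes were targets. DUSP1, a phosphatase of MAP kinases, had 259, 194 and 253 counts in OV3/SCR and 97, 81 and 71 in OV3/COX1KD, and fell by 1.47 on the log2 scale (standard error 0.14, edgeR FDR = 1.6e-08). The kinase SGK1 fell by 0.52. FKBP5, TSC22D3 and PER1, which the receptor induces in many cells, had log2 fold changes of -0.16, 0.20 and -0.025, and none of the 3 passed the threshold (edgeR FDR = 0.0175, 0.0567 and 0.815). NR3C1, the receptor gene, rose by 0.19 (edgeR FDR = 0.00317). That call was lost with any of 4 libraries left out: OV3/SCR replicate 1 (FDR 0.0151) and replicate 2 (0.0223), and OV3/COX1KD replicate 1 (0.0235) and replicate 3 (0.0218). It was also lost with DESeq2, at an adjusted p of 0.0108, and with total count scaling, at an edgeR FDR of 0.0559.

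**Figure D3:**
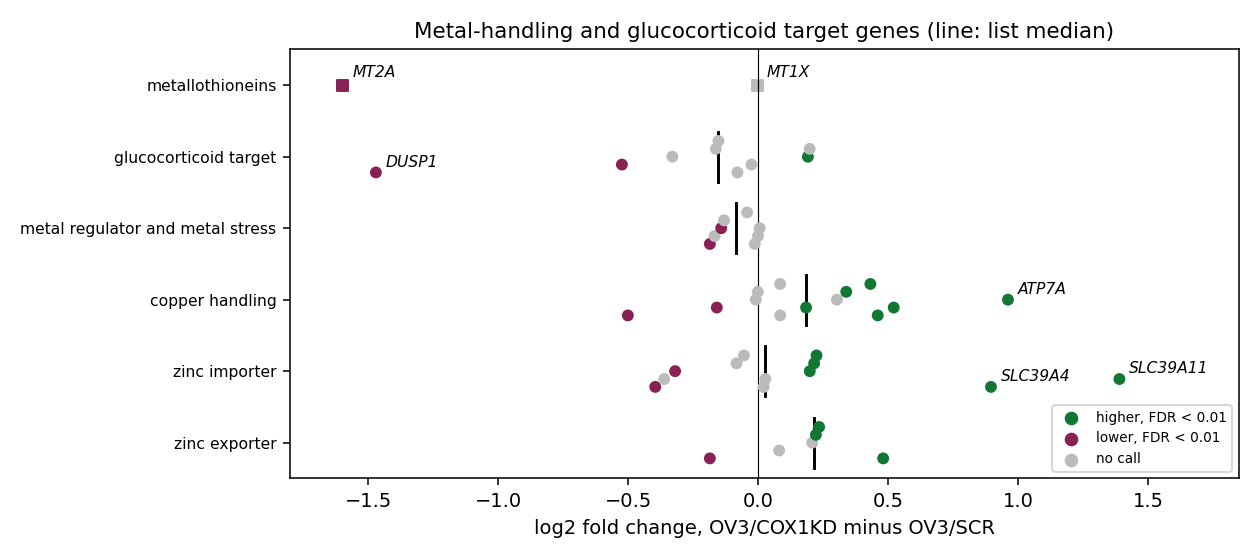
Log2 fold change (OV3/COX1KD minus OV3/SCR) of each tested gene of 5 lists and of the metallothioneins (squares), with genes called higher in green, called lower in purple and without a call in grey, and a black line at each list's median. MT2A lay at -1.60 and DUSP1 at -1.47, while the genes of the metal regulator and stress list lay between -0.19 and 0.0061.

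The genes with the profile most like the summed metallothioneins were sought among 13007 other tested genes whose log2 CPM averaged 1 or more. Likeness was the root mean square difference over the 6 libraries, after each profile was centred on its own mean log2 level. The 5 closest were TTLL7, a tubulin ligase (0.0859), MIAT, a long non-coding RNA (0.0860), ENSG00000272384 (0.107), TTYH1, a membrane protein of the tweety family (0.125), and LIN7A, a scaffold of cell junctions (0.129). TTLL7 had 135, 143 and 125 counts in OV3/SCR and 48, 62 and 41 in OV3/COX1KD. Like MT2A, all 5 had their lowest level in OV3/COX1KD replicate 3 and their highest level of that condition in replicate 2. The measure was chosen to find such profiles, so their likeness is a description.

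**Figure D4:**
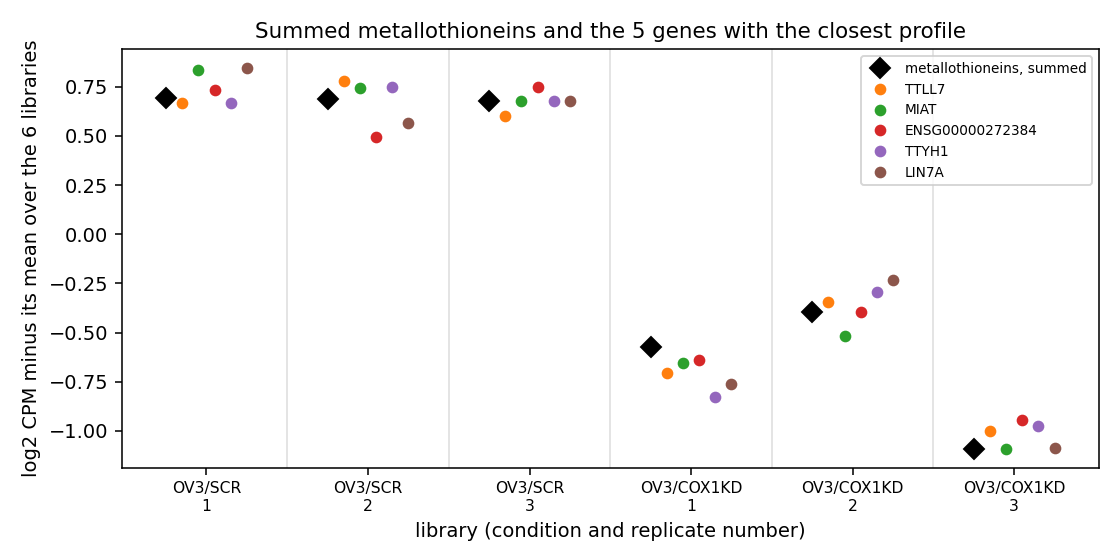
Log2 CPM minus its mean over the 6 libraries for the summed metallothioneins (black diamonds) and the 5 genes with the closest profile (circles), by library. All 6 profiles were above 0 in OV3/SCR and below 0 in OV3/COX1KD, and lowest in OV3/COX1KD replicate 3.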

How the data were processed

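RNA was extracted from 3 harvests of OV3/SCR and 3 of OV3/COX1KD cells, and TruSeq libraries were sequenced on an Illumina instrument. Alignment by the authors was to hg19, using TopHat2 (2.0 in the submitters' processing notes), and HTSeq gave the deposited values, whole-number counts of reads for each gene that had not been normalized. The gene annotation and strand setting are not given in the sources used here. Rows without a count in any library are absent from the table.

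The test was edgeR's quasi-likelihood F-test (edgeR 4.0.16, R 4.3.3) of the condition alone, after filterByExpr kept 17309 of 34811 genes and TMM factors were set. P-values were adjusted over all kept genes by the Benjamini-Hochberg procedure. Genes were called at the study's FDR limit of 0.01 alone. The study also required a fold change above 2.5, which was applied here only to MT2A and to the share of genes lower. Many genes called here are therefore below the study's limit. DESeq2 1.42.0 was an alternative. Positions and lengths came from GENCODE 44 lifted to GRCh37. The script was tested on simulated data. The replicate numbers were checked as pairs: deviations of same-numbered libraries correlated by 0.0045 to 0.042 across genes. Those of other-numbered libraries correlated by -0.027 to 0.018. No pairing was assumed, since the study's methods state none, and a fit with a replicate block was an alternative. The named genes were all members, up to 3 rises and 3 falls of each list without overlap of the conditions, the 5 most alike genes and PTGS1, and those named outside that rule (MTF1, HMOX1, FKBP5, TSC22D3, PER1, SLC31A1 and NUP93) were chosen after their values were seen. Single marker genes came from the marker lists, and those given with their own levels were likewise picked after their values were seen. Members and lists were chosen with earlier results of these data known.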

Additional observations from a re-analysis of the deposited data

How the results depend on the processing

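The count of metallothioneins called lower, 1, and its gene MT2A were the same in all 14 alternatives (RLE and total count scaling, no filter, at least 10 counts in every library, DESeq2, the replicate block, length offsets without and with the block, and each library left out). The log2 fold change of MT2A lay between -1.8 and -1.37, both with an OV3/COX1KD library left out, and was -1.60 with the replicate block and -1.54 with length offsets. The direction of MT1X was not settled. Its log2 fold change was 0.019 without the filter and 0.0086 with the replicate block, lay between -0.29 and 0.35 with a library left out, and was not computed at 10 counts in every library, which it did not reach. No call changed with the replicate block among the tested genes that the naming rule chose. It was not examined for genes named outside that rule.

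With total count scaling 3468 genes were higher and 4971 lower, against 4473 and 3820. By that scaling 4 zinc importers, 5 genes of the glucocorticoid list and 6 genes near the cluster were lower. The glucocorticoid list then had 0 genes higher, since NR3C1, the receptor gene, lost its call. Without the filter 1 copper gene, 1 metal regulator or stress gene and 5 genes near the cluster were lower. With DESeq2 1 metal regulator or stress gene was lower and 0 genes of the glucocorticoid list were higher. With a library left out, 0 to 1 zinc exporters, 1 to 2 copper genes and 0 to 2 metal regulator or stress genes were lower. Of the glucocorticoid list, 0 to 1 genes were then higher. With canonical transcript lengths, chosen after seeing the data, levels per kilobase in OV3/SCR and OV3/COX1KD were 20.4 and 6.75 CPM for MT2A, 1.33 and 1.32 for MT1X, and 0.806 and 0.639 for MT1F. Over the tested genes that the rule chose, other than PTGS1, 413 of 433 values kept their direction and side of the threshold, 15 lost the call and 5, all of MT1X, changed sign. At no more than 20 counts per library, as for MT1X and MT1F, depth limits what can be seen. The cause of these shifts was not tested.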
